A study of Rattus norvegicus with 2 samples.

Results

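The 9 genes described here carry the synthesis of fatty acids from citrate and their later elongation and desaturation. They are Acly, Acaca, Fasn, Elovl6, Elovl5, Scd, Fads1, Fads2 and Srebf1, taken by symbol from the deposited table, and all 9 were present among its 23282 genes. Expression was measured by RNA sequencing in 2 libraries of untreated rat embryonic stem cells of the line RRRC#464 DA-EC8/Rrrc, made from the Dark Agouti strain. The line was wild type with a normal karyotype by its labels, at passage 30, and was kept in 2i medium, which blocks the kinases MEK and GSK3. Both libraries belong to 1 group, so the series sets no condition against another and no test between conditions exists. The series calls the samples biological replicates without saying whether they were separate cultures, so the spread between them may be technical. Levels are in RPKM, which divides the reads of a gene by the length of its model in kilobases and by the reads of the library per 1000000, a unit that allows levels of different genes to be set side by side. The values of rows with a locus under 6000 bp gave totals of 2991184 reads or read pairs for replicate 1 and 3050685 for replicate 2. A level of 10 RPKM thus rests on 29.9 and 30.5 reads per kilobase of gene model.

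Cells build fatty acids in the cytosol from citrate exported by mitochondria. ATP citrate lyase splits the citrate into acetyl-CoA, acetyl-CoA carboxylase turns part of this into malonyl-CoA, and fatty acid synthase joins these units into palmitate. Elongases then lengthen the chain and desaturases place double bonds in it, yielding the monounsaturated and polyunsaturated chains of membrane lipids. Many of these genes are known targets of the SREBP transcription factors, which are held in the endoplasmic reticulum and released by proteolysis when sterols are scarce.

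The cells matched their label at the level of marker genes. All 6 pluripotent stem cell markers stood above 10 RPKM, a level that 29.4% of all genes reached. They ran from Esrrb at 70.5 ± 4.95 RPKM (SD, n = 2) to Utf1 at 655 ± 14.1 RPKM. None of 8 markers of hepatocytes and adipocytes, the cell types best known for lipogenesis, averaged 1 RPKM or more, against 46.4% of all genes. Summed over all 8, their level came to 0.601 and 0.477 RPKM, and Pparg, Plin1, Lep, Ttr and Cyp7a1 were listed at 0 in both. Of 9 fibroblast and feeder cell markers 3 reached 1 RPKM, with a summed level of 6.31 and 11.5 RPKM, and Col1a2 and Lum were listed at 0. The part of such cells in the levels below was not tested, and in bulk RNA fewer expressing cells and less RNA per cell cannot be told apart.

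The genes spanned a wide range of levels, with a desaturase gene at the top and an elongase gene at the bottom. Of the 9 genes 8 averaged 1 RPKM or more, all but Elovl6, and the same 8 averaged 10 RPKM or more, where 46.4% and 29.4% of all genes did. Scd, Acly and Fasn, 3 of the 9, averaged 100 RPKM or more, against 4.00% of all genes. Their median was 57.4 ± 2.84 RPKM (SD, n = 2), against 0.536 ± 0.0284 RPKM over all genes and 16.7 ± 0.151 RPKM over the 10814 genes that averaged 1 RPKM or more. Of the sum of all levels, the 9 genes together held 0.330% in replicate 1 and 0.341% in replicate 2. Scd alone made up 57.4% and 56.3% of the level of all 9.

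**Figure D1:**
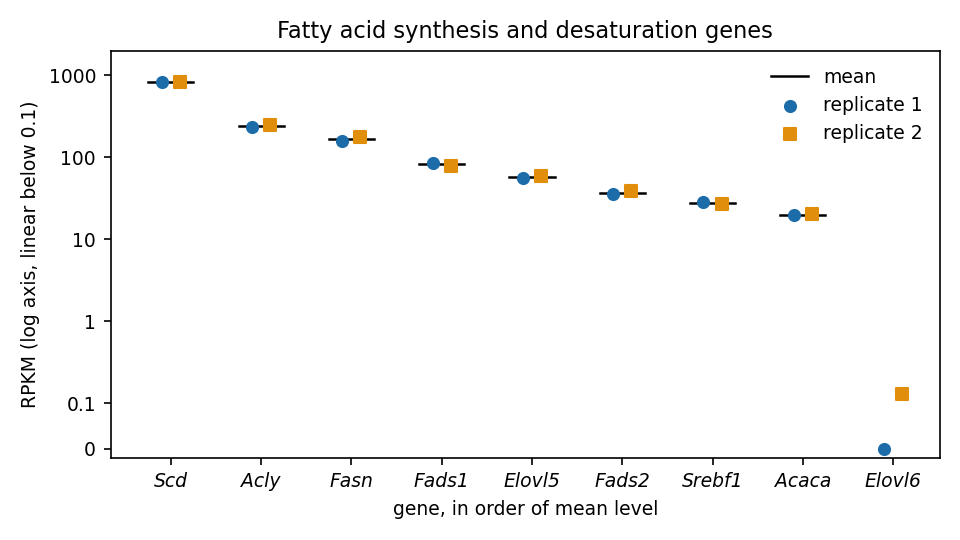
RPKM of each gene in replicate 1 (circles) and replicate 2 (squares), on an axis that is logarithmic above 0.1 RPKM, with the mean as a line except for Elovl6, which was listed at 0 in replicate 1. The 2 values of each of the 8 higher genes lie close together, from Scd at 832 and 836 RPKM down to Acaca at 19.7 and 20.3 RPKM.

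The row named Scd is the highest of the 9 genes, and its name needs care. It carries Entrez identifier 83792 and lies on chromosome 1 from 271502294 to 271515353 on the plus strand of the rn5 build. The RefSeq gene table of the GRCr8 assembly now calls this identifier Scd2 and gives the symbol Scd to identifier 246074, which the deposited table lists as Scd1. Stearoyl-CoA desaturases place the first double bond in saturated chains. In mouse, Scd1 is known as the main form of liver and fat and Scd2 as the main form of brain. Scd (now Scd2) was at 832 and 836 RPKM in replicates 1 and 2, the order of values throughout. Its mean of 834 ± 2.91 RPKM (SD, n = 2) ranked 25 among those 10814 genes.

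Scd1 (now Scd), 87694 bp away on the opposite strand at 271603048 to 271615648, was at 185 and 183 RPKM. Neither gene's values overlapped the other's. On the log2(RPKM + 1) scale Scd lay above Scd1 by 2.17 ± 0.02 (SD, n = 2), and it held 81.9 ± 0.177% of the summed level of Scd, Scd1 and Scd4. Scd4 was at 0.315 and 0.617 RPKM, which the steps in the values make 1 and 2 reads at the shortest possible gene model. A further row of the same cluster, LOC681458, now named Scd3 and looked up after the values were seen, was at 0.317 and 0 RPKM. How reads that fit more than 1 desaturase gene were shared out is not given in the sources used here, so the split between Scd and Scd1 carries that uncertainty.

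The sequences before the start sites of both desaturase genes are shown because they belong to the 2 rows whose names have changed over, and they tell the genes apart. Each gives the 250 bases ahead of the start in RefSeq, GRCr8 build, read along the gene's own strand. Capitals mark CCAAT boxes, the sites known to bind the factor NF-Y, in either orientation. The start used for Scd1 lies 370 bp inside the gene's outer end in the same build.
Scd2 (listed as Scd), plus strand, chr1:253118127-253118376: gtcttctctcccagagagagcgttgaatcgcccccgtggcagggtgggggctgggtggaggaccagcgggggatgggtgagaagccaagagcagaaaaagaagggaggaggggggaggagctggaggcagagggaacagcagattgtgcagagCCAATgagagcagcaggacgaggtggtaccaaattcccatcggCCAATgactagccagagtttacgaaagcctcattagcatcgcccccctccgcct
Scd (listed as Scd1), minus strand, chr1:253231732-253231981: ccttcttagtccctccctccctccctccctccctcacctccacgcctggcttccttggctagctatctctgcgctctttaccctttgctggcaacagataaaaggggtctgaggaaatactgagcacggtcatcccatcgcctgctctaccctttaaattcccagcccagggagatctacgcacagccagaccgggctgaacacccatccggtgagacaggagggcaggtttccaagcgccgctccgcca

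The upstream sequence of Scd2 held 2 CCAAT boxes, which began 97 and 54 bases before the start, and that of Scd held none. The composition was alike, with 60.0% G and C in Scd2 and 58.8% in Scd. Windows of 300 bases, 50 of them after the start, were available for 6 of the 9 genes. Fasn, Acaca and Elovl6 had none and were not searched. Srebf1, which has a pair of start sites, had a pair of windows. CCAAT on either strand was found in 6 of these 7 windows, those of Acly, Elovl5, Scd2, Fads1 and Srebf1, and in 37.5% of all 33469 windows. GGGCGG, the GC box, was found in 5 of 7 windows and in 33.1% of all, and CACGTG, an E-box, in that of Elovl5 and in 6.42% of all. The sterol regulatory element, searched in a form with 1 free base, was in none of the 7 and in 0.269% of all windows. Both strands were searched for every motif, no motif contains another, and a match describes the letters only.

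Among the genes that lead from citrate to palmitate, the carboxylase was the lowest by a wide margin. Acly, which encodes ATP citrate lyase (Entrez 24159, chromosome 10, 88185495 to 88236092, minus strand), was at 235 and 245 RPKM, a mean of 240.0 ± 7.21 RPKM (SD, n = 2), ranking 244. Fasn, which encodes fatty acid synthase (Entrez 50671, chromosome 10, 109579051 to 109597217, minus strand), was at 159 and 179 RPKM, a mean of 169 ± 14.1 RPKM, ranking 435. Both values of Acly lay above both of Fasn, by 0.51 ± 0.08 on the log2 scale.

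Acaca, which encodes the cytosolic acetyl-CoA carboxylase (Entrez 60581, chromosome 10, 71431885 to 71630271, plus strand), was at 19.7 and 20.3 RPKM, a mean of 20.0 ± 0.458 RPKM, ranking 4888. The carboxylase step is known as the committed step of the route and is controlled by phosphorylation, which RNA levels do not show. Acaca held 98.3 ± 0.279% of the summed level of the 2 carboxylase genes, against 1.67 ± 0.279% for Acacb, whose product sits on the mitochondrial outer membrane and restrains fatty acid oxidation. Acacb was at 0.294 and 0.387 RPKM.

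Of the elongase genes, Elovl5 was high and Elovl6 was at the limit of detection. Elovl5 (Entrez 171400, chromosome 8, 84825602 to 84851400, plus strand), which lengthens polyunsaturated chains, was at 55.3 and 59.4 RPKM, a mean of 57.4 ± 2.84 RPKM (SD, n = 2), ranking 1895. Elovl6 (Entrez 171402, chromosome 2, 253695766 to 253803588, plus strand), which turns palmitate into stearate, was listed at 0 in replicate 1 and at 0.131 RPKM in replicate 2. The value in replicate 2 is that of 1 read in a gene model of 2497 bp, the shortest model that gives a whole read, and 3 reads in such a model would be 0.402 and 0.394 RPKM. A listed 0 need not mean that a gene was silent, since 8902 genes were listed at 0 in both replicates and the ribosomal protein gene Rps6 was among them.

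Elovl5 held 63.8 ± 2.39% of the summed level of the 7 elongase genes, followed by Elovl1, which acts on very long saturated chains, with 27.9 ± 2.48%. Elovl1 was at 26.4 and 23.7 RPKM. Elovl5 lay above Elovl1 by 1.17 ± 0.18 (log2, SD, n = 2), and Elovl6 lay below Elovl1 in both replicates. Elovl4 was at 4.02 and 5.34 RPKM and Elovl7, the sum of 2 rows on opposite strands, at 2.68 and 1.31 RPKM. Elovl2 was at 0.627 and 0.791 RPKM and Elovl3 was listed at 0 in both.

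Both desaturase genes of the polyunsaturated route were expressed, Fads1 above Fads2. Fads1 (Entrez 84575, chromosome 1, 233178797 to 233193802, plus strand) encodes the enzyme that acts after elongation, and Fads2 (Entrez 83512, chromosome 1) the one that acts before it. They lie next to each other on opposite strands, 81480 bp apart in rn5. Fads1 was at 85.2 and 79.3 RPKM, a mean of 82.3 ± 4.14 RPKM (SD, n = 2), ranking 1208.

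Fads2 has 2 rows in the table, and its level depends on whether they are summed. The long row, from 233060345 to 233097316, was at 21.5 and 18.6 RPKM. The short row, of 653 bp from 232857004 to 232857656, lies 202688 bp before it, on the far side of Fads3, and was at 14.2 and 20.0 RPKM, so the rows differed in opposite directions between the replicates. Summed, Fads2 was at 35.7 and 38.6 RPKM, a mean of 37.1 ± 2.05 RPKM, ranking 2963, and with the higher row alone it was at 20.0 RPKM. With both rows counted, Fads1 held 67.8 ± 2.19% and Fads2 30.6 ± 2.25% of the summed level of 4 Fads genes. Without the short row the share of Fads2 would be lower and that of Fads1 higher. Fads3 was at 1.04 and 0.909 RPKM and Fads6 at 0.931 and 0.913 RPKM. The Fads6 values correspond to 5 reads in each library at the shortest gene model, so their closeness does not measure precision.

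**Figure D2:**
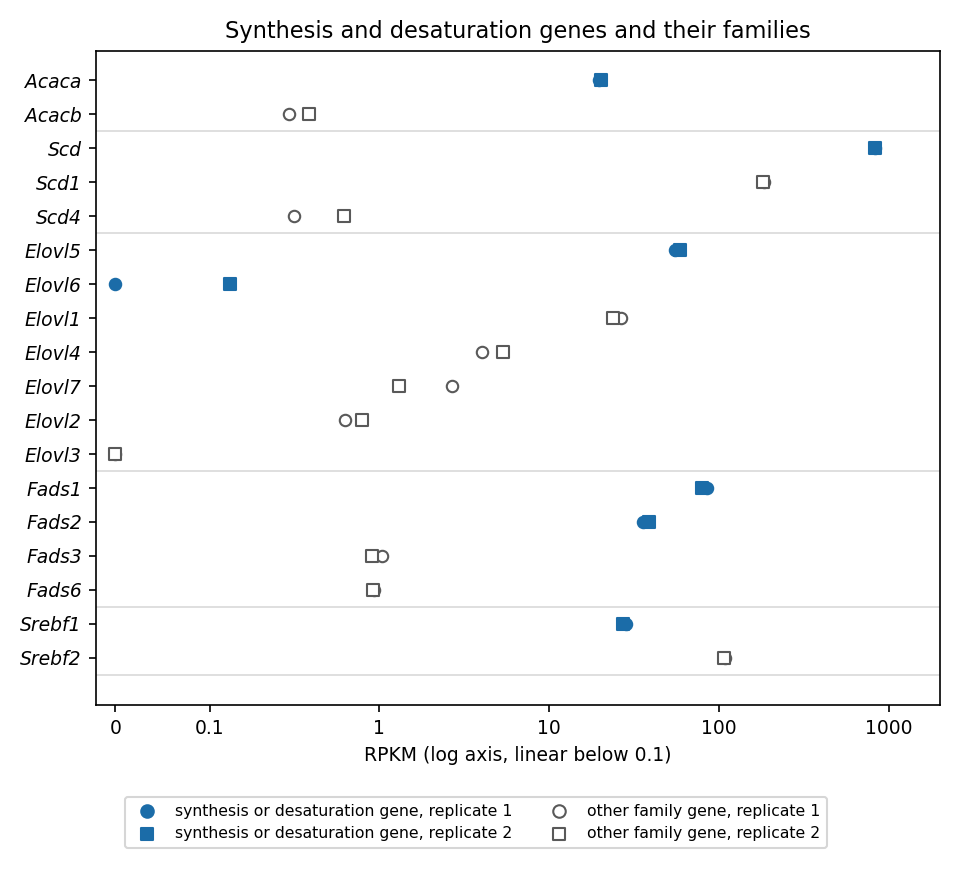
RPKM in replicate 1 (circles) and replicate 2 (squares) of the described genes (filled) and of the other genes of their families (open), with lines between the families and an axis that is logarithmic above 0.1 RPKM. Scd, Elovl5, Acaca and Fads1 stand highest in their families, while Srebf1, at 28.6 and 27.3 RPKM, stands below Srebf2 at 108 and 107 RPKM.

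Srebf1 was expressed at a lower level than its paralog. Srebf1 (Entrez 78968, chromosome 10, 46325369 to 46348022, minus strand), whose product SREBP-1 is best known for activating fatty acid genes, was at 28.6 and 27.3 RPKM, a mean of 27.9 ± 0.904 RPKM (SD, n = 2), ranking 3793. Srebf2, whose product is best known for activating cholesterol genes, was at 108 ± 0.495 RPKM. The difference of Srebf1 minus Srebf2 on the log2 scale was -1.94 and -1.88, and Srebf1 held 20.6 ± 0.454% of their summed level. Over the 11 other genes of these families, the median was 0.978 ± 0.0924 RPKM. Of the 11, 5 averaged 1 RPKM or more, near the share of 46.4% over all genes. Srebf2, Scd1 and Elovl1, 3 of the 11, averaged 10 RPKM or more, where 29.4% of all genes did. The gene-level values do not separate the isoforms that start at the 2 sites.

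Transcripts of all 5 genes whose proteins handle SREBP after translation were above 1 RPKM. Scap, which encodes the escort protein, was at 24.3 ± 1.65 RPKM, and the protease genes Mbtps1 and Mbtps2 were at 43.6 ± 0.295 and 16.5 ± 1.34 RPKM. Insig1, whose product retains the complex in the endoplasmic reticulum, was at 36.9 ± 0.127 RPKM and Insig2 at 7.81 ± 0.541 RPKM. Of 13 regulator genes in all, 11 reached 1 RPKM and 8 reached 10 RPKM, where 46.4% and 29.4% of all genes did. The regulators had a median of 18.2 ± 1.35 RPKM.

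The 3 lowest regulators were Thrsp, Nr1h3 and Mlxipl. Thrsp, a lipogenic factor of liver and fat, was listed at 0 in both replicates, while its relative Mid1ip1, which promotes polymerisation of acetyl-CoA carboxylase, was highest at 88.4 ± 5.87 RPKM. Nr1h3, the liver X receptor form of liver and macrophages, was at 0.837 and 0.616 RPKM, against 28.2 ± 2.01 RPKM for the widely expressed form Nr1h2. Mlxipl, the glucose-responsive factor ChREBP, was at 1.38 and 1.35 RPKM and its partner Mlx at 18.2 ± 1.35 RPKM. The Mlxipl values correspond to 4.12 reads per kilobase of gene model in each library, so their closeness does not measure precision. Of the catalytic subunits of AMPK, the kinase that phosphorylates acetyl-CoA carboxylase, Prkaa1 was at 20.1 ± 2.28 RPKM and Prkaa2 at 3.31 ± 0.311 RPKM.

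With the 2 rows of Fads2 summed, the order of levels was the same in both replicates for all 9 genes. Among the 8 genes above 1 RPKM, each neighbour differed from the next by more than the SD of that difference over the replicates. The differences ran from 0.40 ± 0.12 (log2, SD, n = 2) between Fads2 and Srebf1 to 1.79 ± 0.04 between Scd and Acly. The genes were ordered by the mean of these same replicates, so each mean difference is positive by construction. An SD over 2 replicates cannot decide whether neighbours are told apart. Acaca lay above Elovl6 in both replicates, by an amount set by the 1 RPKM added on the log2 scale, because Elovl6 was listed at 0 in replicate 1. The place of Fads2 in the order depends on its rows: with the higher row alone Fads2 lay below Srebf1, at -0.46. That row, at 21.5 and 18.6 RPKM, lay above Acaca in replicate 1 and below it in replicate 2. Acaca was at 19.7 and 20.3 RPKM. Fads1 lay above Elovl5 by 0.51 ± 0.14, Elovl5 above Fads2 by 0.61 ± 0.01 and Srebf1 above Acaca by 0.46 ± 0.08. Fasn lay above Fads1 by 1.03 ± 0.19.

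The genes that supply the route with citrate and NADPH stood above it at the median. The difference of medians, synthesis and desaturation genes minus supply genes, was -0.36 ± 0.01 (log2, SD, n = 2), and -0.10 when genes under 0.1 RPKM, here Elovl6, were left out. All 9 supply genes averaged 10 RPKM or more, where 29.4% of all genes did, and the supply median was 74.0 ± 3.93 RPKM. Citrate synthase (Cs) was at 219 ± 10.5 RPKM, and Pgd, an NADPH-producing enzyme of the pentose phosphate route, was at 172 ± 3.38 RPKM. Acss2, which makes acetyl-CoA from acetate and so offers a route that bypasses Acly, was lowest at 14.5 ± 0.283 RPKM.

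Of 8 genes for enzymes that complete the elongation cycle or deliver electrons to the desaturases, 6 averaged 1 RPKM or more. The share over all genes was 46.4%, and the list had a median of 30.7 ± 2.18 RPKM. Hsd17b12, the ketoacyl-CoA reductase, was at 62.2 ± 1.78 RPKM, Tecr, the enoyl-CoA reductase, at 61.5 ± 0.458 RPKM and Cyb5r3, the cytochrome b5 reductase, at 56.0 ± 4.54 RPKM. The dehydratase gene Hacd4 was lowest, at 0 and 0.316 RPKM. The separate mitochondrial route of fatty acid synthesis was lower, with all 7 genes at 1 RPKM or more and a median of 16.0 ± 0.215 RPKM. It was led by the acyl carrier protein gene Ndufab1 at 32.5 ± 1.24 RPKM, Hsd17b8 at 31.6 ± 0.198 RPKM and the enoyl reductase gene Mecr at 17.2 ± 1.38 RPKM, with Oxsm lowest at 0.853 and 1.91 RPKM.

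**Figure D3:**
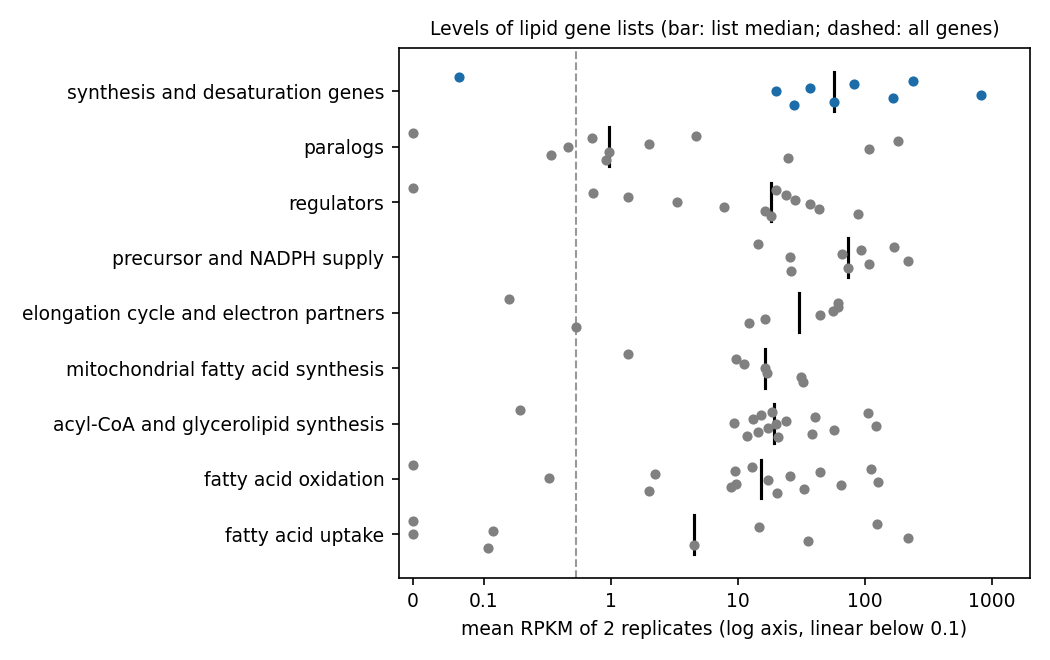
Mean RPKM over the 2 replicates of each measured gene of 9 lists, 1 list per line, on an axis that is logarithmic above 0.1 RPKM, with a bar at each list median and a dashed line at the median of all genes. The bars of the synthesis and desaturation genes, at 57.4 RPKM, and of precursor and NADPH supply, at 74.0 RPKM, lie farthest to the right.

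Genes that use or burn fatty acids were also present, at lower medians. Of 16 genes of acyl-CoA activation and glycerolipid synthesis 15 reached 1 RPKM, where 46.4% of all genes did. The list had a median of 18.9 ± 1.46 RPKM. The lipid droplet coat gene Plin3 was at 123 ± 2.65 RPKM, the acyl-CoA synthetase genes Acsl3 and Acsl4 at 106 ± 0.0422 and 57.3 ± 3.98 RPKM, and Acsl6 at 0.261 and 0.128 RPKM. Of 16 genes of fatty acid oxidation 14 reached 1 RPKM and 9 reached 10 RPKM, against 46.4% and 29.4% of all genes. The oxidation median of 14.9 ± 1.97 RPKM was 1.89 ± 0.11 below that of the synthesis and desaturation genes on the log2 scale.

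The oxidation list was led by Hadha and Hadhb, the subunits of the mitochondrial trifunctional protein, at 127 ± 3.55 and 113 ± 6.47 RPKM, and by Acadl at 65.6 ± 2.63 RPKM. Echs1 was listed at 0 in both replicates. Among the carnitine palmitoyltransferases of the outer membrane, named here after their values were seen, Cpt1a was at 2.11 and 1.89 RPKM and Cpt1b at 2.01 and 2.43 RPKM, below Cpt1c at 22.3 and 18.5 RPKM, the form known from brain. Uptake genes were uneven, with 5 of 9 at 1 RPKM or more, against 46.4% of all genes, and a median of 4.54 ± 0.0469 RPKM. Fabp5, a fatty acid binding protein, was at 219.6 ± 4.38 RPKM and the transporter gene Slc27a4 at 36.1 ± 0.655 RPKM, while Cd36 and Fabp4 were listed at 0 in both.

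The fatty acid genes differed by less than 1.2-fold between the replicates, in most cases by no less than other genes of their level. None of the 8 genes above 1 RPKM differed by more than 1.2-fold of RPKM + 1, where 21.9% of the 10814 genes did. That share holds many genes with few reads, so each gene was also set beside genes whose mean lay within 0.5 of its own on the log2 scale. The ratio was smaller than the median of such genes in 3 of the 8, Scd, Srebf1 and Acaca, and larger in Acly, Elovl5, Fads2, Fads1 and Fasn. Among genes at a like level 54.8% had a smaller ratio than Acly, 58.1% than Elovl5, 58.2% than Fads2 and 64.1% than Fads1. Of the 9 genes 7 were higher in replicate 2, and Fads1 and Srebf1 were higher in replicate 1.

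Fasn was the farthest apart of the 8, with a log2 ratio of replicate 1 over replicate 2 of -0.17. Of the 483 genes near its level 93.8% had a smaller ratio. A gene model of 1 kb would give that ratio a counting error of 0.09, and a longer model a smaller one. In the other 7 of the 8 genes the ratio was smaller than the counting error of a 1 kb model. Fads1 had 0.10 against an error of 0.13 and Elovl5 -0.10 against 0.16. The 1 kb is an assumed length, and a longer model lowers the error, so these ratios cannot be placed within counting error. The counting errors treat reads as independent and cover counting only.

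**Figure D4:**
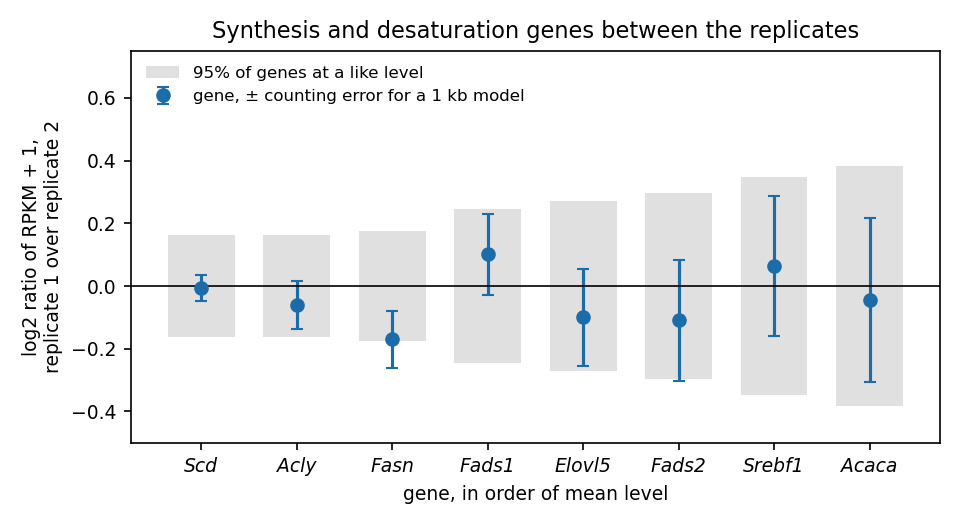
Log2 ratio of RPKM + 1, replicate 1 over replicate 2, for the 8 genes other than Elovl6 (points), with the counting error of a 1 kb gene model (bars) and the range that holds 95% of the genes at a like level (grey). All 8 points lie inside the grey range, and Fasn, at -0.17, lies nearest to its edge.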

How the data were processed

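The deposited values are RPKM per gene row with rn5 positions, in 1 table whose 2 value columns carry the sample titles. Libraries were TruSeq, sequenced as paired 50-bp reads, per the labels' protocols and the series design. CASAVA 1.8 and TopHat 1.4.0 are named, with the builds rn5 and Rnor_5.0, per the submitters' processing notes. The sources used here name no counting tool and no rule for reads with several matches.

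Rows of the same Entrez identifier were summed (23716 rows, 23282 genes, 420 with more than 1 row). Differences were taken on the log2(RPKM + 1) scale, where those of low genes come out too small. Read totals are those at which the number of rows with a locus under 6000 bp that came out as whole reads stood out most (526 of 2700 rows in replicate 1, 525 of 2688 in replicate 2, relative tolerance 3e-07), by a method tested on simulated data. For the 10 rows of the 9 genes, whole reads were sought only under 100 RPKM, which left out Scd, Acly and Fasn. Of the other rows, those of Elovl5 and Elovl6 came out whole.

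Genes and lists were chosen with earlier results of these data known. Named are the 9 genes, all measured paralogs and regulators, and the 3 highest and the lowest gene of each other list, of which some are not reported here. Of 123 list entries 121 had a row of their own, 4 of them matched through the RefSeq table of GRCr8. The entry Scd2 is the row listed as Scd, so Scd1 was added as its paralog after the table was seen, and Hacd2 was not analysed here. Alternatives were a pseudocount of 0.1, the highest row per gene, rescaling to a sum of 1000000, other minimum levels, list means, median centring and each replicate alone. Python 3.11.15, numpy 2.4.6, pandas 2.3.3 and matplotlib 3.10.9 were used.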

Additional observations from a re-analysis of the deposited data

How the results depend on the processing

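No paired analysis was possible because the series holds 1 group. Each replicate alone gave all compared differences the direction of their mean. With the higher row of each gene in place of the sum, Fads2 minus Srebf1 turned round to -0.46 from 0.40, Elovl5 minus Fads2 was 1.47 (0.61 with the sum) and Fads2 minus Fads3 was 3.41, since Fads2 loses its short row. Rescaling each library to a sum of 1000000 raised the median of the 9 genes to 131 and the genes at 100 or more to 5, the change of unit itself. On the log2 scale it gave 0.62 for Elovl5 minus Fads2, 5.36 for Acaca minus Elovl6 (4.30 as deposited), 4.72 for Acaca minus Acacb (3.97), -5.67 for Elovl6 minus Elovl1 (-4.61), 5.87 for Fads1 (5.40) and 4.73 for Fads2 (4.27) minus Fads3, and 5.35 and 3.54 for the median of the 9 genes minus those of paralogs (4.88) and uptake (3.40). A pseudocount of 0.1 gave 0.63, 7.05, 5.52, -7.37, 6.26, 5.11, 5.74 and 3.63 for these in the same order, and 1.65 minus regulators (1.60). Differences that involve Elovl6 are set by the pseudocount, since it was listed at 0 in replicate 1. List means gave 3.33 minus paralogs, 2.16 minus regulators, -0.27 minus precursor supply (-0.36), 1.77 minus elongation partners (1.05), 1.96 minus mitochondrial synthesis (1.78), 1.31 minus glycerolipid synthesis (1.55) and 2.79 minus uptake. With only genes at 0.1 RPKM or more, which leaves out Elovl6, these were 1.79 minus regulators, -0.10 minus precursor supply, 1.30 minus elongation partners, 2.03 minus mitochondrial synthesis, 1.81 minus glycerolipid synthesis and 2.15 minus uptake. The median rank of the 9 genes, above 82.4% of the genes that averaged 1 RPKM or more, was above 84.6%, 79.6% and 91.8% with a minimum of 0.3 RPKM, 3 RPKM and none. All of these but Fads2 minus Srebf1 kept their direction. Depth limits Elovl6 and Scd4, which rest on 0 to 2 reads per library at their shortest gene models.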
